A study of Homo sapiens with 6 samples.

Results

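The 38 genes described here encode enzymes that make, recycle or remove nucleotides, and they were taken by name from a list. They comprise 13 genes of purine synthesis, 5 of pyrimidine synthesis, 8 of deoxynucleotide supply, 4 salvage enzymes, 5 nucleotide kinases and 3 folate enzymes that supply one-carbon units. All 38 had a row among the 63236 genes of the deposited comparison, with ADSS1 and ADSS2 under their older names ADSSL1 and ADSS. Of these, 37 were among the 17395 genes with an adjusted p-value, called tested genes here, and the remaining one, CTPS2, was listed at 0.

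RNA was sequenced from FUJIOKA, a human acute myeloid leukaemia cell line, after silencing of SPINK2, a serine protease inhibitor. Both groups carried a lentiviral Tet-pLKO-puro vector and received doxycycline, which switches on its shRNA. The 3 shNEG libraries expressed a scrambled shRNA and the 3 shSPINK2 libraries one that targets SPINK2, and the comparison asked how SPINK2 loss alters the transcriptome. The labels name 2 SPINK2 shRNAs without saying which was in the sequenced cells, and the study's methods describe the cloning of 1 of them, shRNA1. An effect of SPINK2 loss and an effect of that shRNA or of the transduced line itself cannot be told apart. The sources used here do not say whether the libraries of a group came from separate cultures, so p-values measure only the spread between these libraries.

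Values per library are whole reads recovered from the deposited mean, fold change and standard error, divided by each library's size factor, and are called normalized read counts. Libraries are lettered A, B and C within a group as names only, and values of a gene are given in that order. SPINK2 itself had 56, 63 and 53 reads in shNEG and 7, 9 and 6 in shSPINK2. Of the myeloid markers searched, PTPRC, CD33, MPO, SPI1, CEBPA and LYZ had deposited means between 1844 and 44097, whereas CD34 had a mean of 19.6 and KIT of 0.67. CD3E, MS4A1, HBB, EPCAM and KRT18, markers of other cells, had means from 0 to 0.50, and COL1A1 had 149. In bulk RNA, fewer cells of one kind, for example cells in S phase, and less RNA per cell cannot be told apart.

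Cells build purines on a ribose phosphate, PRPP, through a chain of reactions that ends in IMP, from which AMP and GMP branch off. Pyrimidines are assembled as a ring that is then joined to PRPP, and CTP is made from UTP. Ribonucleotide reductase converts ribonucleotides to the deoxynucleotides needed for DNA, thymidylate synthase adds the methyl group that makes dTMP, and salvage enzymes return free bases and nucleosides to the pools. These routes are active in proliferating leukaemia cells and are the targets of several antileukaemic drugs.

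Most nucleotide enzymes were lower in shSPINK2, and the largest falls were those of RRM2, MTHFD1L, ADSS2, RRM1, DTYMK and TYMS. In the authors' DESeq2 Wald test, adjusted by Benjamini-Hochberg over all tested genes, 25 of the 37 tested enzymes were lower at an adjusted p under 0.05, 5 were higher (IMPDH2, ADSS1, SAMHD1, APRT and CMPK1) and 7 were not called. Over all tested genes that threshold called 47.1%, of which 24.4% of tested genes were lower and 22.7% higher, so the enzymes had a larger share called lower (67.6%) and a smaller share called higher (13.5%). The enzymes are also more highly counted than most genes, with a median deposited mean of 3670 against 538 for all tested genes. Among the 2556 genes with a mean at or above the enzymes' median, 75.2% were called and 38.9% were lower, against 81.1% and 67.6% of the enzymes. The median log2 fold change of the 37 enzymes was -0.33, and that of all tested genes was 0.01, with quartiles of -0.27 and 0.28.

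The changes were mostly moderate in size. Only RRM2 passed the study's fold threshold, an absolute log2 fold change over 1, on the lower side, where 2.71% of all tested genes did, and no enzyme passed it on the higher side, where 1.56% of tested genes did. MTHFD1L lay just inside the threshold at -0.999, short of it by 0.0013. In normalized read counts, all 3 shSPINK2 libraries lay below all 3 shNEG libraries for 26 enzymes and above them for 5, compared with 30.0% and 29.0% of the 17077 tested genes whose reads were recovered. The 26 are the 25 called lower and ATIC. The groups overlapped for ADSL, RRM2B, DCTD, GUK1, NME1 and NME2. The within-group SD had a median of 3.50% of the group mean over these genes. With 3 libraries against 3, an exact two-sided permutation test cannot go below p = 0.1, which is the value every called enzyme reached.

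**Figure D1:**
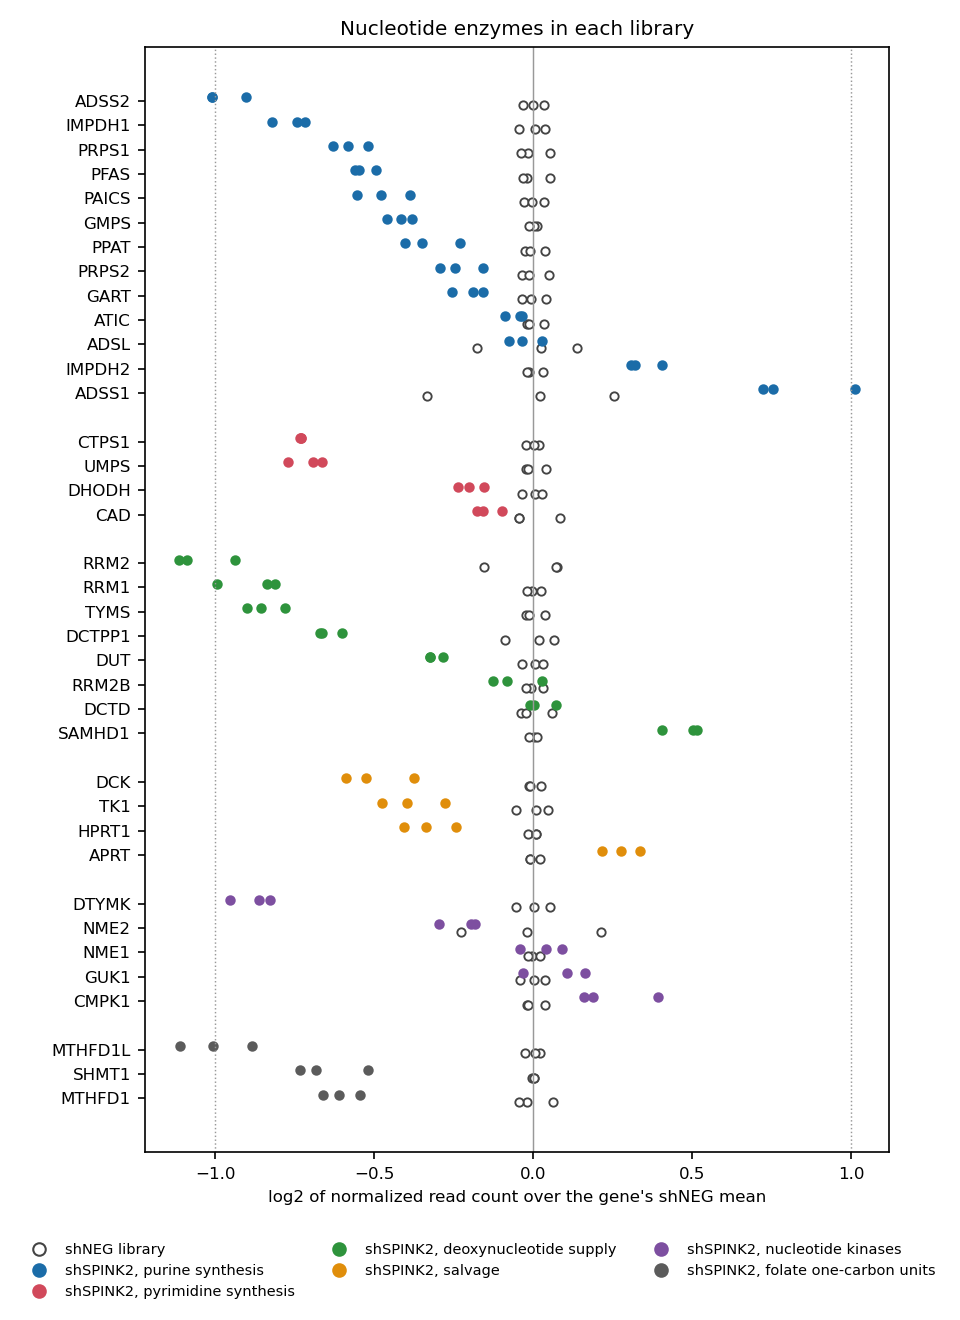
Normalized read count of each tested enzyme in each library on a log2 scale, relative to that gene's shNEG mean, with shNEG libraries as open circles and shSPINK2 libraries as filled circles coloured by step, and dotted lines at the fold threshold of 1. Filled circles lie left of the open ones for most enzymes and right of them for IMPDH2, ADSS1, SAMHD1, APRT and CMPK1, and those of RRM2, MTHFD1L and ADSS2 lie on both sides of the left dotted line.

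**Figure D2:**
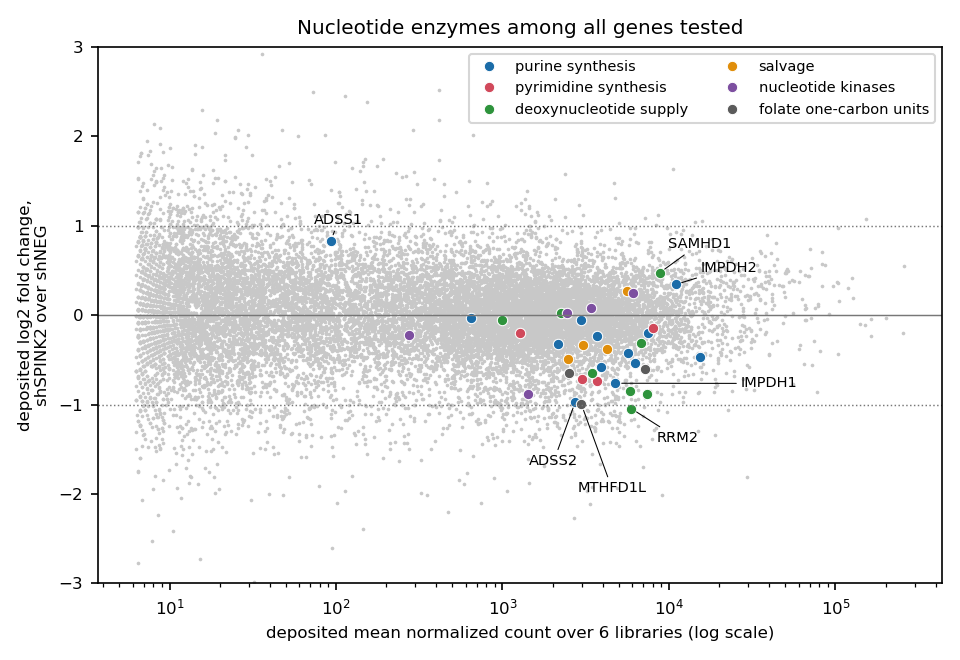
Deposited log2 fold change, shSPINK2 over shNEG, against the deposited mean normalized count (log scale) for 17390 tested genes in grey, with 5 beyond the vertical limits of 3, and for the 37 tested enzymes in colour by step. Most enzymes have means over 1000 and lie below 0, and RRM2 alone lies below the lower dotted line at -1.

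In the purine chain to IMP, PRPS1, PRPS2, PPAT, GART, PFAS and PAICS fell, whereas ADSL and ATIC were not called. PRPS1 and PRPS2 make the starting ribose phosphate PRPP. PRPS1 had 4592, 4822 and 4527 normalized read counts in shNEG and 3003, 3243 and 3099 in shSPINK2, a log2 fold change of -0.58 (SE, its standard error, 0.05, DESeq2 adjusted p = 4.50e-32). PRPS2 fell less, from 4139, 3904 and 3966 to 3268, 3587 and 3371, at -0.23 (0.05, DESeq2 adjusted p = 1.03e-05). Both groups were fully separated for either gene.

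PPAT catalyses the committed step, in which an amine is placed on PRPP, and GART, PFAS and PAICS carry out the following ring-building steps. PPAT had 2352, 2381 and 2462 normalized read counts in shNEG and 1815, 2043 and 1882 in shSPINK2, a mean of 2398 ± 56.7 against 1913 ± 117 (SD, n = 3), at -0.33 on the log2 scale (SE 0.06, DESeq2 adjusted p = 3.50e-08). PAICS, the most abundant of the chain, went from 17567, 17888 and 18372 to 12210, 13719 and 12864, at -0.47 (0.05, DESeq2 adjusted p = 1.61e-24). For both genes every shSPINK2 library lay below every shNEG library. PFAS fell by 0.53 on the log2 scale and GART by 0.20 (DESeq2 adjusted p = 1.97e-34 and 8.39e-06). By contrast ATIC, which closes the ring to IMP, had a log2 fold change of -0.06 (95% interval -0.15 to 0.04, DESeq2 adjusted p = 0.351), and ADSL, which acts in this chain and again on the way to AMP, one of -0.03 (-0.20 to 0.15, DESeq2 adjusted p = 0.836). ATIC's 3 shSPINK2 libraries, at 2821, 2927 and 2918, lay below its shNEG libraries at 2962, 2974 and 3073 by little. ADSL's ranges overlapped, and 11.1% of its exon bases are shared with another annotated gene.

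PPAT and PAICS are neighbours on chromosome 4 that are transcribed away from each other. In GENCODE 44 (GRCh38) PPAT (ENSG00000128059.8) spans 56393362 to 56435615 on the minus strand and PAICS (ENSG00000128050.8) 56435741 to 56464578 on the plus strand, with 126 bases between their starts. SPINK2 lies 345.3 kb beyond PAICS on the same chromosome. PAICS has several RefSeq promoter windows, each from 250 bases before to 50 after a start. The PAICS window printed here shares 236 bases with that of PPAT, so it shows nearly the same interval for both genes of a pair that moved together. It runs over chr4:56435502-56435801 (GRCh38.p14, plus strand), and its capitals mark an E-box (CACGTG), a word bound by MYC and related factors. The other PAICS windows neither overlap that of PPAT nor hold an E-box.
PAICS and PPAT: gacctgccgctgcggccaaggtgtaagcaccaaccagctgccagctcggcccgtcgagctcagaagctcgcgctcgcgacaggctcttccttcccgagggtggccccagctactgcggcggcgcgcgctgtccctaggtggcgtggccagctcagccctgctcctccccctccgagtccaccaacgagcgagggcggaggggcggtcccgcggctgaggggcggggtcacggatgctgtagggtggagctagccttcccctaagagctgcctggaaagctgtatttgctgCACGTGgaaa

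At the branch points after IMP, paralogous enzymes moved in opposite directions. IMPDH1 and IMPDH2 catalyse the same rate-limiting oxidation of IMP on the way to GMP, and IMPDH2 is the form usually raised in proliferating cells. IMPDH1 (ENSG00000106348.16, chromosome 7 from 128392277 to 128409986) had 6162, 5816 and 6026 normalized read counts in shNEG and 3584, 3392 and 3645 in shSPINK2, so that its mean fell by 41.0%, with a log2 fold change of -0.76 (SE 0.05, DESeq2 adjusted p = 2.58e-60). IMPDH2 (ENSG00000178035.11, chromosome 3 from 49024325 to 49029447) went from 9889, 9592 and 9542 to 12068, 11966 and 12794, a rise of 26.9% with a log2 fold change of 0.34 (0.04, DESeq2 adjusted p = 2.53e-16). No library of one group fell within the range of the other for either gene. GMPS, which completes GMP, was lower at -0.42 (0.04, DESeq2 adjusted p = 2.37e-23).

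IMPDH1 made up 38.4%, 37.7% and 38.7% of the normalized reads of the pair in shNEG and 22.9%, 22.1% and 22.2% in shSPINK2. The log2 ratio of IMPDH1 to IMPDH2 was -0.69 ± 0.03 in shNEG and -1.79 ± 0.04 in shSPINK2 (SD, n = 3), a difference of -1.10 (exact two-sided permutation p = 0.1, the smallest the design allows, and 0.125 when adjusted over 5 pairs). The normalized reads of both genes together were 15676 ± 335 in shNEG and 15816 ± 559 in shSPINK2 (SD, n = 3), a difference smaller than the spread between libraries. This sum is of reads and not corrected for transcript length. The union of all annotated exons is 3.40 kb for IMPDH1 and 5.12 kb for IMPDH2. For IMPDH2 that union covers the whole span of the gene, so it is not the length of a transcript. The sum therefore does not show whether the transcripts of the pair together changed.

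In the AMP branch the paralogs also moved in opposite directions, at very unequal levels. ADSS2, the adenylosuccinate synthetase of most tissues, and ADSS1, the form best known from muscle, join aspartate to IMP. ADSS2 (ENSG00000035687.9, chromosome 1 from 244408494 to 244451909) fell from 3537, 3708 and 3616 normalized read counts to 1797, 1936 and 1797, from 3620 ± 85.4 to 1843 ± 80.0 (SD, n = 3), with a log2 fold change of -0.97 (SE 0.05, DESeq2 adjusted p = 1.62e-79). ADSS1 (ENSG00000185100.10, chromosome 14 from 104724174 to 104747325) rose from 80, 68 and 53 recovered reads to 114, 114 and 133, at 0.83 (0.20, DESeq2 adjusted p = 1.39e-04). The groups were separate for both genes. The share of ADSS1 in the pair's normalized reads went from 2.21%, 1.80% and 1.45% to 5.78%, 5.51% and 6.99%, so ADSS2 remained by far the larger in every library. Both genes together went from 3687 ± 81.0 to 1963 ± 75.4 normalized reads (SD, n = 3). This sum of reads, again not corrected for exon length, fell by far more than the spread between libraries. The log2 ratio of ADSS1 to ADSS2 differed by 1.82 between groups (exact two-sided permutation p = 0.1, adjusted 0.125). Per kilobase of exon, the deposited mean was 16.1 for ADSS1 and 794 for ADSS2.

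**Figure D3:**
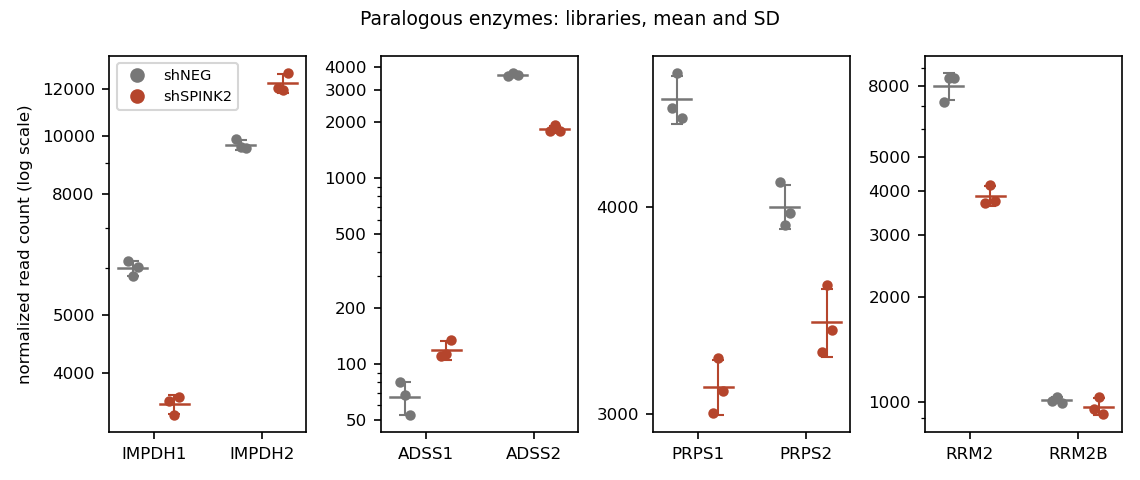
Normalized read counts (log scale, a different range in each panel) of IMPDH1 and IMPDH2, ADSS1 and ADSS2, PRPS1 and PRPS2, and RRM2 and RRM2B, with a point per library and the mean and SD of each group of 3. The members of the IMPDH and ADSS pairs move in opposite directions, both PRPS genes fall, and RRM2 falls while RRM2B's groups overlap.

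Several of the purine enzymes that fell share a short word with shRNA2, one of the SPINK2 shRNAs named in the labels. The word is not in shRNA1, the one whose cloning the methods describe, and whether the sequenced cells expressed a sequence that holds it is not given in the sources used here. All 30 words of 7 bases in the 2 shRNA target sequences were searched in canonical 3′ UTRs, those of 11128 genes whose deposited mean reached 50. GCTCTCA, positions 10 to 16 of the shRNA2 target, was the word whose 1173 carriers had the lowest median relative to the other genes, at -0.20 against 0.00, a difference of -0.20, whereas the other words gave differences from -0.08 to 0.04. Since it was found on these same data, it is given as a description. The shRNA2 target and the sites in the lower members of both pairs, with the word in capitals, read as follows, with MTHFD1L added as the folate enzyme with the largest fall.
shRNA2 target: cgccaaactGCTCTCAgtata
IMPDH1 site: agccagccagGCTCTCAggccctgcgc
ADSS2 site: tgctcctgctGCTCTCAtggtgccacg
MTHFD1L site: gtggacaagGCTCTCAcaggacccga

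Of the 37 tested enzymes, 7 (18.9%, against 10.5% of all genes searched) carried the word: PFAS, PAICS, IMPDH1, ADSS2, DHODH, UMPS and MTHFD1L. All 7 were lower, at a median of -0.71 on the log2 scale, and the 30 without it had a median of -0.27, with 18 lower. Among all 11128 genes, 53.5% of carriers and 32.1% of the others were called lower. IMPDH2 and ADSS1, the paralogs that rose, do not carry it in their canonical 3′ UTR, and neither do RRM1, RRM2, TYMS, DTYMK or CTPS1, which fell. A word of shRNA1, AGGTGGT, also went with a lower median among the enzymes, but hardly over all genes. It occurred in 10 of the 37 and in 12.7% of all genes searched, with a median of -0.56 in these 10 and -0.23 in the other enzymes, while over all genes the medians with and without it differed by -0.01. The 2 sets of carriers are not separate, since IMPDH1, PFAS and UMPS hold both words. SAMHD1 and CMPK1, which rose, hold this shRNA1 word. The shRNA2 word was picked for the low median of its carriers in these same data. The 7 enzymes are among those carriers, so their falls are not a test of it. Whether either word had a part in the falls of its carriers was not tested. Without the 7 enzymes that hold GCTCTCA, the median of purine synthesis was -0.20 in place of -0.33.

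All measured enzymes of pyrimidine synthesis were lower, with the larger falls at the end of the route. CAD carries the opening 3 activities and DHODH, a mitochondrial enzyme, the next one. CAD had 8951, 8181 and 8181 normalized read counts in shNEG and 7562, 7457 and 7876 in shSPINK2, a log2 fold change of -0.14 (SE 0.05, DESeq2 adjusted p = 0.00437). The groups did not overlap, but shNEG library A stood above the rest, and without it the fall was -0.10 and not called (limma-voom adjusted p = 0.0896). DHODH went from 1375, 1395 and 1336 to 1190, 1162 and 1229, at -0.20 (0.06, DESeq2 adjusted p = 0.00289).

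UMPS, which attaches the ring to PRPP and completes UMP, fell from 3682, 3844 and 3692 to 2189, 2361 and 2313, a log2 fold change of -0.71 (SE 0.05, DESeq2 adjusted p = 1.54e-45). CTPS1, the CTP synthetase on which proliferating blood cells rely, fell from 4643, 4512 and 4590 to 2761, 2761 and 2754, at -0.73 (0.04, DESeq2 adjusted p = 1.43e-61). Its shSPINK2 libraries were the most alike of any group, with a mean of 2759 ± 4.03 (SD, n = 3). CTPS2, its paralog, was listed at 0 although the neighbouring genes SYAP1 and RBBP7 had means of 1434 and 7639, so no ratio of the pair was formed. The median of the 4 tested genes was -0.45.

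Deoxynucleotide supply held the enzyme with the lowest fold change of the 37, RRM2, and also 1 that rose, SAMHD1. RRM1 and RRM2 are the large and small subunits of ribonucleotide reductase, and RRM2 is made mainly in S phase. RRM2 (ENSG00000171848.14, chromosome 2 from 10120698 to 10211725) had 7186, 8417 and 8397 normalized read counts in shNEG and 3697, 4176 and 3758 in shSPINK2, a drop from 8000 ± 705 to 3877 ± 261 (SD, n = 3) with a log2 fold change of -1.05 (SE 0.06, DESeq2 adjusted p = 6.56e-63). RRM1 (ENSG00000167325.14, chromosome 11 from 4094707 to 4138932) had 9542, 9443 and 9722 in shNEG and 4804, 5447 and 5350 in shSPINK2, at -0.88 (0.05, DESeq2 adjusted p = 6.69e-72). For both subunits even the highest shSPINK2 library was well under the lowest shNEG library.

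RRM2B, the alternative small subunit that serves cells outside S phase, did not follow. It had 1008, 1034 and 997 normalized read counts in shNEG and 956, 1033 and 929 in shSPINK2, with overlapping groups and a log2 fold change of -0.06 (95% interval -0.19 to 0.08, DESeq2 adjusted p = 0.524). RRM2 supplied 87.7%, 89.1% and 89.4% of the small-subunit reads in shNEG and 79.5%, 80.2% and 80.2% in shSPINK2. The log2 ratio of RRM2 to RRM2B fell by 0.98 between groups (exact two-sided permutation p = 0.1, adjusted 0.125), and per kilobase of exon the deposited mean was 649 for RRM2 and 184 for RRM2B.

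The promoters of the 2 reductase subunits that fell together are shown because both hold CCAAT, a word bound by NF-Y that is frequent in genes of the cell cycle. The RRM2 window at chr2:10122489-10122788 has it 3 times and the RRM1 window at chr11:4094435-4094734 has it once (RefSeq, GRCh38.p14, both on the plus strand), with the word in capitals.
RRM2: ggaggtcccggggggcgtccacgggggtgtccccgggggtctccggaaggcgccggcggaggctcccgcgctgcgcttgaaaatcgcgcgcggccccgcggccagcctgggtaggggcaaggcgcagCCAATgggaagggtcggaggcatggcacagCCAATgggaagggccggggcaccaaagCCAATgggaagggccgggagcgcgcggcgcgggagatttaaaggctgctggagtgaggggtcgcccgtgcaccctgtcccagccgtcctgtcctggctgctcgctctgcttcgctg
RRM1: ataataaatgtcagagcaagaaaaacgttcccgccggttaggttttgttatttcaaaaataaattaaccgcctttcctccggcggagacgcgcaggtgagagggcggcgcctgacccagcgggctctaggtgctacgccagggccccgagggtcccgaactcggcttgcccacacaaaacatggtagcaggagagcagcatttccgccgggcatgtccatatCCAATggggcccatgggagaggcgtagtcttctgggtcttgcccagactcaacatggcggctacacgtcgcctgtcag

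Motif words were counted on both strands in every RefSeq promoter window of a gene, and 35 of the 38 enzymes had a window. CCAAT occurred in 13 of the 35 (37.1%) and in 42.8% of the 11339 tested genes with a window, so it was no more frequent among the enzymes. The 13 included SAMHD1, which rose, and NME1, which was not called, and the rest fell. E2F words (TTTCGCGC, TTTGGCGC, TTTCCCGC or TTTGCCGC) occurred in DCK, DUT, GART, PRPS2 and TYMS, which is 14.3% against 6.45% of tested genes. The E-box occurred in 9 enzymes (25.7% against 12.3%), among them PPAT, PAICS, ATIC, MTHFD1 and MTHFD1L. PPAT and PAICS are counted separately although they hold the same site, in the bases that their windows share. CHR words (TTTGAA or TTCGAA) occurred in 7 (20.0% against 15.9%). These were ADSS2, DTYMK, DUT, MTHFD1L, RRM1 and UMPS, which fell, and APRT, which rose. The median log2 fold change of the enzymes with a word and of those without it was -0.31 and -0.42 for E2F, -0.47 and -0.38 for the E-box, -0.58 and -0.33 for CCAAT and -0.88 and -0.33 for CHR. Over all tested genes with a window, the same medians were -0.106 and 0.003 for E2F and -0.017 and -0.002 for the E-box. For CCAAT they were -0.012 and 0.003, and for CHR -0.038 and 0.002. Whether any word had a part in the changes was not tested. A match describes letters in the window and not binding.

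The enzymes that make dTMP and keep uracil out of DNA also fell. TYMS, thymidylate synthase and the target of fluorouracil, had 7678, 7376 and 7419 normalized read counts in shNEG and 4014, 4139 and 4356 in shSPINK2, a log2 fold change of -0.85 (SE 0.04, DESeq2 adjusted p = 4.21e-79). The groups were far apart, although 47.9% of TYMS exon bases are shared, with the largest overlap being that of ENOSF1. DUT, which splits dUTP to dUMP, was lower by less, at -0.31 (0.04, DESeq2 adjusted p = 5.15e-14), with 14.5% of its exon bases shared, mainly with DUT-AS1. DCTPP1, which removes modified and surplus dCTP, went from 4262, 4402 and 3955 to 2640, 2653 and 2772, at -0.65 (0.05, DESeq2 adjusted p = 5.75e-35). Of its exon bases 41.2% are shared, with the largest overlap being that of ZNF771. DCTD, which converts dCMP to dUMP, had overlapping groups and a log2 fold change of 0.02 (95% interval -0.08 to 0.12, DESeq2 adjusted p = 0.784).

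SAMHD1 acts in the opposite sense, breaking dNTPs down, and is known for inactivating the active form of cytarabine. It was the one enzyme of this step that rose. SAMHD1 (ENSG00000101347.8, chromosome 20 from 36890229 to 36951893) had 7361, 7419 and 7294 normalized read counts in shNEG and 9735, 10508 and 10426 in shSPINK2, from 7358 ± 62.3 to 10223 ± 425 (SD, n = 3), a rise of 38.9% with a log2 fold change of 0.47 (SE 0.04, DESeq2 adjusted p = 1.29e-28). Every shSPINK2 library exceeded every shNEG library, and 9.86% of SAMHD1 exon bases are shared, mainly with TLDC2. The median of the 8 genes of deoxynucleotide supply was -0.48, with 5 lower, 1 higher and 2 not called. Of all tested genes, 24.4% were lower and 22.7% higher.

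Of the 4 salvage enzymes, DCK, TK1 and HPRT1 fell and APRT rose. DCK phosphorylates deoxycytidine and activates cytarabine, TK1 is the thymidine kinase of S phase, and HPRT1 and APRT return purine bases to nucleotides. DCK had 2861, 2867 and 2934 normalized read counts in shNEG and 2003, 2225 and 1918 in shSPINK2, at -0.49 on the log2 scale (SE 0.06, DESeq2 adjusted p = 5.22e-17). TK1 went from 4933, 4799 and 4593 to 3625, 3433 and 3938, at -0.38 (0.05, DESeq2 adjusted p = 6.65e-12). In both nucleoside kinases all shSPINK2 libraries were below all shNEG libraries.

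HPRT1, which salvages hypoxanthine and guanine, was also lower, from 3344, 3397 and 3400 to 2548, 2853 and 2677 (log2 fold change -0.33, SE 0.05, DESeq2 adjusted p = 8.12e-10). APRT, which salvages adenine, was higher instead, from 5065, 5055 and 5171 to 6429, 5915 and 6167 (0.28, 0.04, DESeq2 adjusted p = 2.09e-09). Neither gene's groups overlapped, so the pair of purine salvage enzymes moved in opposite directions. Per kilobase of exon, APRT had the highest deposited mean of all 38 enzymes, at 3137, followed by TYMS at 2408 and TK1 at 2287. This order rests on the union of all annotated exons and is not a ranking of transcript levels. For IMPDH2, at 2142 per kilobase, that union covers the whole span of the gene.

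Among nucleotide kinases DTYMK fell, CMPK1 rose and 3 were not called. DTYMK, which phosphorylates dTMP after TYMS or TK1 has made it, fell from 1913, 1848 and 1778 normalized read counts to 1040, 954 and 1015, with a log2 fold change of -0.88 (SE 0.06, DESeq2 adjusted p = 8.36e-45). CMPK1, the kinase of UMP and CMP, rose from 5466, 5478 and 5686 to 6193, 7281 and 6309, at 0.25 (0.06, DESeq2 adjusted p = 2.73e-05), with library B of shSPINK2 well above its fellows. The groups did not overlap in either case, and without that library the rise of CMPK1 was still called by limma-voom.

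GUK1, which phosphorylates GMP, and NME1 and NME2, which turn nucleoside diphosphates into triphosphates, were not called. Their log2 fold changes were 0.08 (95% interval -0.03 to 0.19), 0.03 (-0.07 to 0.13) and -0.22 (-0.47 to 0.02), with DESeq2 adjusted p-values of 0.232, 0.687 and 0.134. The groups overlapped in all 3. NME1 and NME2 lie next to each other on chromosome 17 and share 18.7% and 24.2% of their exon bases with other annotated genes, mainly the readthrough NME1-NME2, so their reads are uncertain. The log2 ratio of NME1 to NME2 differed by 0.24 between groups (exact two-sided permutation p = 0.2, adjusted 0.2), and that of PRPS1 to PRPS2 by -0.34 (p = 0.1, adjusted 0.125, by the same exact test).

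The 3 folate enzymes all fell. SHMT1 makes the folate-bound one-carbon unit in the cytosol, MTHFD1 converts such units to the form used by GART and ATIC, and MTHFD1L releases formate from mitochondria. MTHFD1L (ENSG00000120254.15, chromosome 6 from 150865679 to 151101887) had 4031, 3896 and 3987 normalized read counts in shNEG and 1839, 1974 and 2150 in shSPINK2, from 3971 ± 69.0 to 1988 ± 156 (SD, n = 3) with the log2 fold change of -0.999 given above (SE 0.06, DESeq2 adjusted p = 1.49e-69). SHMT1 went from 3061, 3081 and 3078 to 1849, 1912 and 2145, at -0.64 (0.06, DESeq2 adjusted p = 3.13e-28). MTHFD1 fell by 0.60 on the log2 scale (0.05, DESeq2 adjusted p = 1.45e-38), with 11.1% of its exon bases shared with another gene. No groups overlapped.

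The mitochondrial enzymes upstream of MTHFD1L, which are not among the 38, moved less. SHMT2 had a log2 fold change of -0.18 (DESeq2 adjusted p = 2.39e-05) and MTHFD2, which follows it, one of 0.05 (DESeq2 adjusted p = 0.291). Of the 14 tested genes on the wider folate list, 6 were lower and 2 higher, with a median of -0.09, where 24.4% and 22.7% of all tested genes were. The lowest called of them was MTHFS at -0.56, and SHMT1, MTHFD1 and MTHFD1L each had a lower value than that.

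Steps differed in their medians, which are given without a test since genes are not replicates. The median log2 fold change was -0.64 for folate one-carbon units, -0.48 for deoxynucleotide supply, -0.45 for pyrimidine synthesis, -0.35 for salvage, -0.33 for purine synthesis and 0.03 for nucleotide kinases. Purine synthesis had 9 of 13 genes lower, 2 higher and 2 not called, pyrimidine synthesis 4 of 4 lower, salvage 3 of 4 lower and 1 higher, and nucleotide kinases 1 of 5 lower and 1 higher. Over all tested genes 24.4% were lower and 22.7% higher, and nucleotide kinases were near these shares in both directions. Taken per library, the median of the deoxynucleotide genes relative to their shNEG means was -0.50, -0.48 and -0.46 in shSPINK2 and between -0.01 and 0.02 in shNEG. That of purine synthesis spread more, at -0.40, -0.23 and -0.35. The medians rest on 3 to 13 genes a step, and their order depends on how they are formed. Without the enzymes that can share reads with another gene, that of deoxynucleotide supply was -0.0588, and a mean weighted by the inverse of the squared standard error was -0.17 for salvage and -0.0937 for nucleotide kinases.

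Other genes of nucleotide metabolism were called in both directions. Their counts are to be read against the 24.4% of all tested genes called lower and the 22.7% called higher, and a share near these is no result about a list. The remaining purine genes, mainly deaminases, adenylate kinases and guanine enzymes, had 3 of 18 lower and 8 higher, with a median of 0.11. Of these, PNP, which cleaves purine nucleosides, was the lowest called at -0.33, and ADA2, an extracellular adenosine deaminase, the highest at 0.95 with a deposited mean of 82.9. The remaining pyrimidine genes had 8 of 13 lower and 1 higher, with a median of -0.26. SLC29A1, the transporter that carries nucleosides and cytarabine into cells, was the lowest of them, from 5145, 5090 and 5056 normalized read counts to 2914, 3383 and 3143 (log2 fold change -0.70, DESeq2 adjusted p = 1.55e-38), whereas CDA, cytidine deaminase, had -0.11 (DESeq2 adjusted p = 0.182). Nucleotidases, pool-cleaning hydrolases and further kinases had 5 of 15 lower and 3 higher, and the highest called was NME4 at 0.41.

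All 27 genes of the DNA replication list were lower, with a median of -0.76 and called values from -1.20 for RFC3 to -0.21 for PRIM2. The falls of RRM1, RRM2, TYMS and DTYMK, from -0.85 to -1.05, lay within that range. Of 16 genes of ribosome biogenesis and MYC, 12 were lower and none higher, with a median of -0.30. For both lists, the shares over all tested genes were 24.4% lower and 22.7% higher. Among the 2556 genes with a mean at or above the enzymes' median, 38.9% were lower. MYC itself had a log2 fold change of 0.02 (DESeq2 adjusted p = 0.758). Whether a smaller share of cells in S phase had a part in the falls of the nucleotide enzymes was not tested.

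**Figure D4:**
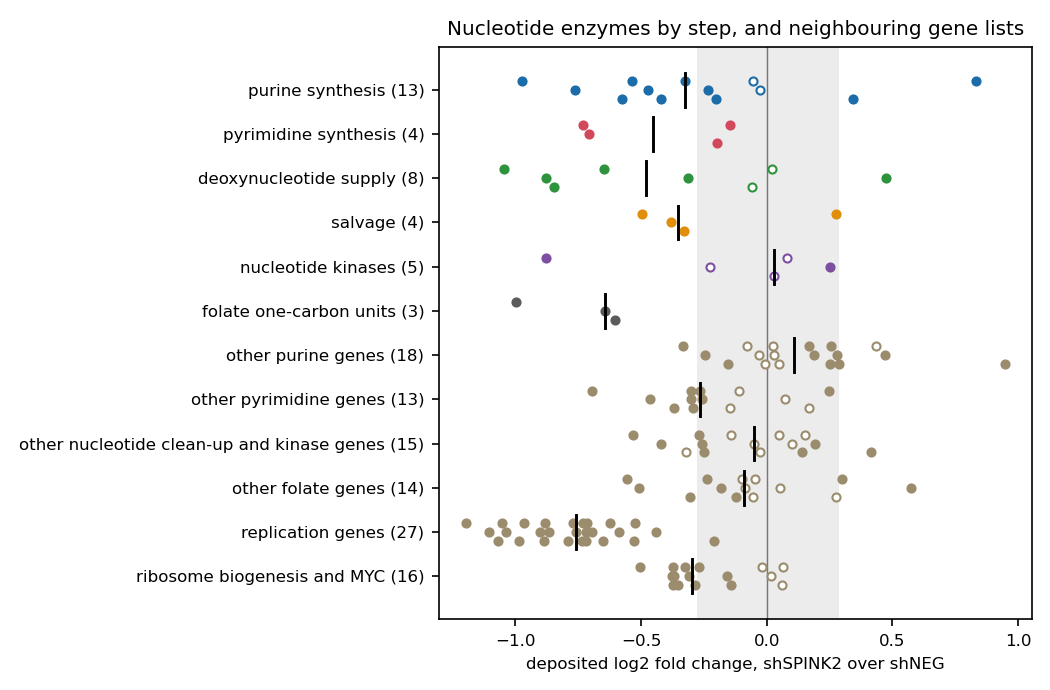
Deposited log2 fold change of each tested gene, shSPINK2 over shNEG, for the 6 steps (coloured) and 6 neighbouring lists (brown), with filled circles for an adjusted p under 0.05, open circles for the rest, a black bar at each median, and a grey band from the lower to the upper quartile of all tested genes. Replication genes and the folate enzymes lie furthest to the left, and nucleotide kinases and other purine genes are spread on both sides of 0.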

How the data were processed

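The members and the gene lists were chosen with earlier results of these data known. FUJIOKA RNA from 3 shNEG and 3 shSPINK2 samples was sequenced by the authors as paired reads, aligned to GRCh38 (hg38) with STAR 2.7.11, counted per gene with featureCounts and compared with DESeq2 1.40.0 (versions from the submitters' processing notes). Annotation release and strandedness are not given in the sources used here. The deposited table holds a mean normalized count over all libraries (a signal, counts divided by size factors), a log2 fold change with its standard error, a Wald score and a p-value with its adjusted p-value. These columns are the authors' comparison and are used as deposited, since the table holds no value per library. Their test was the main test, over all 17395 genes with an adjusted p-value.

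Whole reads per library were recovered by searching for the 6 counts that give the deposited mean and, refitted, the deposited fold change and standard error within 1e-13. Of 17148 genes searched, 17077 (99.6%) had exactly 1 solution and 0 of 34254 searches with a shifted mean had any. In simulated data 298 of 300 genes were recovered, all 298 correctly. Recovered libraries have a group, from the sign of the deposited fold change of genes with 1 read in all, but no replicate number. They held 26799301 to 27730434 reads in these genes, 70.8% of the summed deposited mean. Recovered reads were fitted with limma 3.58.1 (voom, R 4.3.3) as an alternative chosen after seeing the data, as were leaving out each library in that fit and leaving out carriers of the shRNA word. Positions, exon lengths (union of all exons) and 3′ UTRs came from GENCODE 44, and genes were matched by Ensembl ID. Paralog and member ratios per library were compared with exact permutation tests (scipy 1.17.1). Intervals of fold changes are 1.96 standard errors to either side. All 38 members may be named, and of other genes SPINK2, the lowest and highest called gene of each list, and SHMT2, MTHFD2, SLC29A1, CDA and PNP. MYC was named after its value was seen. A few items that this rule or the marker lists name are not reported here.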

Additional observations from a re-analysis of the deposited data

How the results depend on the processing

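The direction of every called member held under each alternative. The count of lower members was 23 to 26 for other thresholds, adjustments, limma-voom and leaving out 1 library, 21 without the members that can share reads and 18 without those carrying the shRNA word, and the count of higher members was 3 under Bonferroni adjustment, which lost ADSS1 and CMPK1, along with CAD and DHODH among lower members. Leaving out 1 library in limma-voom lost CAD without shNEG library A and added NME2 without shNEG library B (adjusted p = 0.00621) and GUK1 without shSPINK2 library B (adjusted p = 0.00761). Past the fold threshold there were 2 members, RRM2 and MTHFD1L, with centred fold changes and with limma-voom, 1 to 2 without 1 library, 13 over 1.5-fold and 15 over 0.5 log2. A mean weighted by the inverse of the squared standard error, in place of the median, gave -0.47 for pyrimidine synthesis, -0.37 for deoxynucleotide supply, -0.17 for salvage and -0.0937 for nucleotide kinases, which changed sign. Without the 7 members that share at least 10% of exon bases with another gene, or at least 1% of their mean with pseudogene copies, the medians were -0.0588 for deoxynucleotide supply, 0.0801 for nucleotide kinases and -0.82 for folate one-carbon units. Without members carrying the shRNA word, that of purine synthesis was -0.20. No ratio between paralogs moved by more than its spread. Of 296 ratios per member recomputed without 1 library, unscaled or with medians, 10 moved by over 1 SD and 0 called ones changed sign, and the largest shift was 0.146, for ADSS1. No paired analysis was possible because the recovered libraries carry no replicate number. Every value is relative to the other genes of a library, so a change in total RNA per cell cannot be seen. Counts limit ADSS1 and NME2 most.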
